A study of Mus musculus with 30 samples.

Results

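The genes described here carry out glucose uptake, glycolysis, lactate handling, control of fructose 2,6-bisphosphate and the pentose phosphate pathway. There are 35 of them, taken as a list of names by their place in these pathways, drawn up with earlier results of these data known, against 16049 genes tested in a time course and 16054 in a passage experiment, and all 35 passed the low-count filter in both. The cells were E14tg2a mouse embryonic stem cells (ESCs), an established line, so a group of 3 libraries is 3 samples of 1 line. The time course held 12 RNA-seq libraries, 3 each from ESCs in standard serum medium with LIF (Serum/LIF, labelled as the 0 h control, whose treatment protocol speaks of 24 h in Serum/LIF) and from ESCs moved for 3, 9 or 24 h into Enhanced Metabolic Media (EMM), in which D-galactose takes the place of D-glucose and pyruvate. The passage experiment held 18 libraries, 3 from each of Serum/LIF, EMM and 2i/LIF after 10 or 20 passages (P10, P20). The medium 2i/LIF holds inhibitors of MEK and of GSK3 with LIF, and the treated groups came from ESCs first grown in Serum/LIF. The study's methods describe 3 biological replicates from independent experiments for its RNA-seq, which the labels do not state for each group, so p-values may in part measure technical spread.

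Glycolysis splits glucose into pyruvate in a preparatory phase that spends ATP and a pay-off phase that returns it, and lactate dehydrogenase then converts pyruvate to lactate, which monocarboxylate transporters carry out of the cell. Fructose 2,6-bisphosphate is the strongest activator of phosphofructokinase, and the PFKFB enzymes make and break it. The pentose phosphate pathway leaves glycolysis at glucose 6-phosphate and yields NADPH and ribose 5-phosphate. Galactose enters at glucose 6-phosphate after several enzyme steps, which slows glycolytic flux, and ESCs in Serum/LIF are known for strong glycolysis.

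Deposited read counts summed to between 24074132 and 35301962 per library in the time course and between 6944904 and 27912928 in the passage experiment. Values are given as normalized counts, the counts divided by library size after TMM scaling within an experiment, so they compare libraries of 1 experiment and not genes. Fold changes are on the log2 scale from edgeR's quasi-likelihood test, and a gene was called at a Benjamini-Hochberg adjusted p under 0.01 over all tested genes. Summed markers of ESCs lay between 2629 and 3777 CPM in every library. Fibroblast markers summed to 134 to 470 CPM in the 6 Serum/LIF libraries of the passage experiment, against 1.33 to 6.73 CPM in the EMM and 2i/LIF libraries, while they spanned 38.5 to 58.2 CPM over all time-course libraries. Trophectoderm markers (5 genes) summed to 55.1 to 55.3 CPM in Serum/LIF of the time course, 45.1 to 47.6 at 3 h, 67.8 to 70.4 at 9 h and 70.9 to 73.5 at 24 h, and primitive endoderm markers (5 genes) to 11.3 to 11.5, 9.48 to 10.5, 11.3 to 12.1 and 14.6 to 15.6 CPM. In the passage experiment the trophectoderm sum was 64.2 to 76.2 CPM in Serum/LIF, 22.9 to 31.2 in EMM and 44.3 to 55.2 in 2i/LIF at P10 and 68.9 to 78.2, 68.1 to 74.5 and 49.5 to 55.1 at P20. The primitive endoderm sum was 10.8 to 14.5, 4.17 to 5.47 and 5.8 to 6.42 CPM at P10 and 13.8 to 19.8, 12.6 to 19.5 and 4.46 to 8.47 at P20. The fibroblast sum moves with every passage comparison against Serum/LIF below and the other sums with several comparisons, and their part in the results was not tested. In bulk RNA, fewer cells of a type and less RNA per cell cannot be told apart.

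Transcript levels per length (TPM) spanned a wide range among the members. In Serum/LIF of the time course Pkm, pyruvate kinase, had 2364 ± 93.7 TPM (SD, n = 3), Aldoa, the main aldolase, 2217 ± 128, Ldha, the lactate dehydrogenase A subunit, 1914 ± 96.9 and Gapdh 1670.0 ± 53. At the other end stood Pfkfb4 at 2.1 ± 0.333, Pfkfb2 at 3.27 ± 0.0916 and the neuronal enolase Eno2 at 5.06 ± 0.395 TPM. Isozymes were uneven in some pairs and near even in others: Hk2 had 275 ± 3.42 TPM against 20.5 ± 0.415 for Hk1, and Eno1 had 912 ± 33.9 against 67.5 ± 4.97 for Eno3, while Slc2a1 stood at 0.857 times the level of Slc2a3 and Slc16a3 at 0.766 times that of Slc16a1. In all, 11 members share over 10% of their 60-base exon windows with other genes, so their counts are uncertain. They are Pgk1 (53.4%), Pgam1 (35.7%), Eno1 (24.7%), Gapdh (24.0%), Pkm (22.3%), Pgls (18.5%), Pfkfb2 (16.9%), Ldhb (16.6%), Rpe (14.9%), G6pdx (14.3%) and Gpi1 (13.5%). Pgam1 stood at 315 ± 14.4 TPM in Serum/LIF of the time course and 2053 ± 58.8 in that of P10, and levels are therefore not compared between the experiments.

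The first comparison asks how ESCs adjust these transcripts in the hours after glucose is replaced by galactose. Pfkfb3, Pfkfb2 and Tigar, which control fructose 2,6-bisphosphate, were higher at all 3 times, as were the glucose transporter Slc2a3 and the hexokinase Hk2. Pfkfb3 had the largest rise of any member at each time, while by 24 h Ldha and several pay-off enzymes had fallen and Ldhb had risen. At 3 h in EMM 10 of the 35 members were called higher and 4 lower than in Serum/LIF, where 16.3% of all tested genes were called higher and 18.2% lower. At 9 h 15 were higher and 4 lower, beside 18.5% and 19.7% of all genes. By 24 h the members split into 10 higher and 14 lower, with all-gene shares of 21.8% and 22.2%. Most changes were small: the number called and past 1 on the log2 scale in either direction was 1 at 3 h, 1 at 9 h and 0 at 24 h, against 4.22%, 5.55% and 8.18% of all genes. Taking the medians, members stood at 0.03, 0.15 and 0.06 at 3, 9 and 24 h and all genes at −0.01, 0.00 and 0.00. The 24 h count of lower members was 9 without Serum/LIF replicate 1 or replicate 2, where 19% and 18.3% of all genes were lower. The 9 h count of lower members was 2 without EMM 9 h replicate 1 or without Serum/LIF replicate 2 (15.5% and 15.7%). With library totals in place of TMM, 9 members were higher and 9 lower at 3 h, where all genes gave 12% higher and 24% lower.

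**Figure D1:**
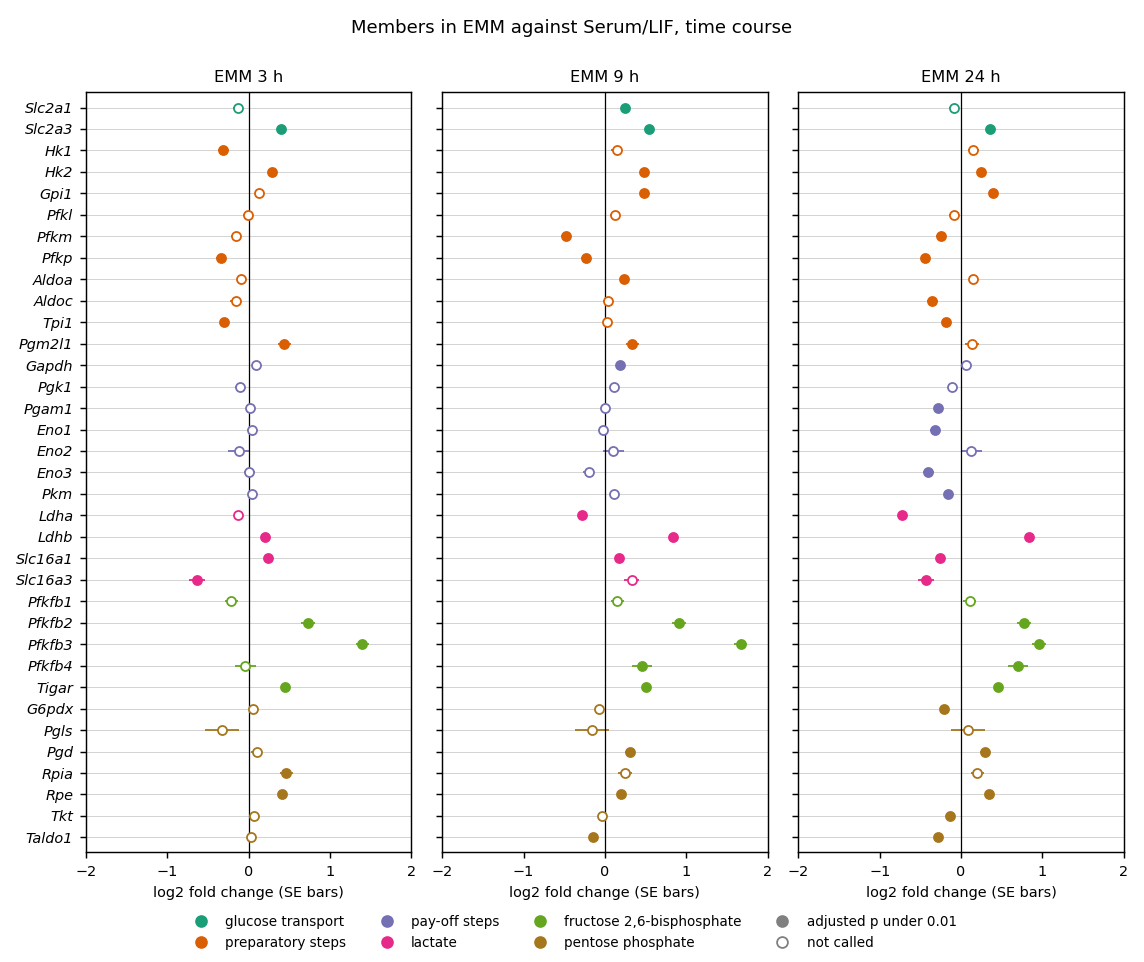
Log2 fold changes of the 35 members in EMM against Serum/LIF at 3, 9 and 24 h, 1 row per gene, coloured by role, with bars of 1 SE and 3 libraries per group. Filled points passed an adjusted p of 0.01 and open points did not. Pfkfb3 lies farthest to the right at 3 h (1.40) and 9 h (1.67), and Ldha farthest to the left at 24 h (−0.73).

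Pfkfb3, the PFKFB isoform with the strongest kinase activity, which raises fructose 2,6-bisphosphate, had 706, 820.3 and 793 normalized counts in Serum/LIF. It measured 2162, 1857 and 2106 after 3 h of EMM, 2154, 2601 and 2639 after 9 h and 1554, 1442 and 1512 after 24 h. All 9 EMM libraries lay above all 3 Serum/LIF libraries. Pfkfb3 rose at 3 h (log2 fold change 1.40, SE 0.0822, adjusted p = 5.33e-09), 9 h (log2 fold change 1.67, SE 0.0821, adjusted p = 7.93e-10) and 24 h (log2 fold change 0.96, SE 0.0829, adjusted p = 1.64e-07), which in linear terms is 2.64-, 3.18- and 1.94-fold. Pfkfb2, a PFKFB isoform regulated by phosphorylation, went from 202, 191 and 199 to 341, 305 and 335 at 3 h, 372, 348 and 397 at 9 h and 373, 305 and 333 at 24 h. Its groups did not overlap with Serum/LIF at any time, and it rose by 0.73 (SE 0.088, adjusted p = 7.85e-06), 0.92 (SE 0.0872, adjusted p = 6.31e-07) and 0.77 (SE 0.0883, adjusted p = 2.87e-06).

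Tigar, a phosphatase that breaks down fructose 2,6-bisphosphate and so acts against the kinases, rose as well. It had 2250.0, 2373 and 2149 in Serum/LIF and 3032, 3107 and 3135, 3306, 3173 and 3121 and 3048, 3170.4 and 3037 at 3, 9 and 24 h. The EMM libraries were all above Serum/LIF, with log2 fold changes of 0.45 (SE 0.0414, adjusted p = 4.73e-07), 0.50 (SE 0.0414, adjusted p = 1.42e-07) and 0.45 (SE 0.0415, adjusted p = 3.06e-07). Pfkfb4, another PFKFB isoform of low level here, had 78.7, 77 and 99.6 in Serum/LIF, 83.4, 74.9 and 88.9 at 3 h, 114, 116 and 121 at 9 h and 154, 127 and 134 at 24 h. It overlapped with Serum/LIF at 3 h, where its log2 fold change was −0.04 (adjusted p = 0.826), and lay above it at 9 h (log2 fold change 0.46, SE 0.123, adjusted p = 0.00599) and 24 h (log2 fold change 0.70, SE 0.121, adjusted p = 0.00016). The 9 h call of Pfkfb4 was lost without EMM 9 h replicate 1, EMM 9 h replicate 2, EMM 9 h replicate 3, Serum/LIF replicate 1 or Serum/LIF replicate 2, taken out one at a time (adjusted p = 0.0113, 0.0151, 0.0165, 0.0232 and 0.03). Pfkfb1 was called at no time. In all, 3, 4 and 4 of these 5 genes were higher at 3, 9 and 24 h, beside 16.3%, 18.5% and 21.8% of all genes, and 0 lower, and their median log2 fold changes were 0.45, 0.50 and 0.70.

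The lactate genes turned in opposite directions. Ldha, whose subunit favours the making of lactate, had 52968, 55453 and 49757 in Serum/LIF, 48228, 46695 and 49271 at 3 h, 41623, 45198 and 42852 at 9 h and 33779, 31189 and 30538 at 24 h. Each EMM group lay below Serum/LIF; the log2 fold change was −0.13 (adjusted p = 0.0323) at 3 h, which passed the threshold only with library totals in place of TMM (adjusted p = 0.00211), and Ldha fell by 9 h (log2 fold change −0.29, SE 0.0479, adjusted p = 0.00015) and further by 24 h (log2 fold change −0.73, SE 0.0482, adjusted p = 9.72e-09). Ldhb, whose subunit favours the use of lactate, moved from 2917, 3075 and 2772 in Serum/LIF to 3409, 3167 and 3474 at 3 h, 5179, 5382 and 5050.0 at 9 h and 5398, 5105 and 5183 at 24 h. No EMM library overlapped with Serum/LIF, and Ldhb rose by 0.20 (SE 0.0471, adjusted p = 0.00295), 0.83 (SE 0.0469, adjusted p = 2.93e-09) and 0.84 (SE 0.047, adjusted p = 1.57e-09). The 3 h call of Ldhb was lost without EMM 3 h replicate 1, EMM 3 h replicate 3 or Serum/LIF replicate 3, taken out one at a time (adjusted p = 0.0145, 0.019 and 0.0133), and with library totals in place of TMM (adjusted p = 0.0307).

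Slc16a1 and Slc16a3 encode monocarboxylate transporters, the latter known for lactate export. Slc16a3 had 6471, 6485 and 5121 in Serum/LIF, 4209, 3563 and 3915 at 3 h, 7268, 8384 and 7045 at 9 h and 4989, 3983 and 4451 at 24 h. It fell at 3 h (log2 fold change −0.63, SE 0.0984, adjusted p = 9.59e-05), lay above Serum/LIF at 9 h without passing the threshold (log2 fold change 0.33, SE 0.0973, adjusted p = 0.011) and was lower again at 24 h (log2 fold change −0.43, SE 0.0981, adjusted p = 0.00167). The 9 h value passed with DESeq2's size factors, adjusted p = 0.00935, without the filter on low counts, adjusted p = 7.71e-12, and without EMM 9 h replicate 3, Serum/LIF replicate 1 or Serum/LIF replicate 2, adjusted p = 0.00579, 0.00988 and 0.00683. The 24 h call of Slc16a3 was lost without EMM 24 h replicate 2, Serum/LIF replicate 1 or Serum/LIF replicate 2, taken out one at a time (adjusted p = 0.0131, 0.0125 and 0.012). Slc16a1 had 6366, 6788 and 6389 in Serum/LIF, 7805, 7537 and 7795 at 3 h, 7473, 7439.7 and 7228 at 9 h and 5735, 5387 and 5263 at 24 h. It was higher at 3 h (0.24, SE 0.0399, adjusted p = 0.000146) and 9 h (0.18, SE 0.0399, adjusted p = 0.00155) and lower at 24 h (−0.25, SE 0.0401, adjusted p = 7.05e-05), with no overlap at any time. Of the 4 lactate genes, 2 were higher and 1 lower at 3 h and at 9 h, and 1 was higher and 3 lower at 24 h. The all-gene shares were 16.3% and 18.2% at 3 h, 18.5% and 19.7% at 9 h and 21.8% and 22.2% at 24 h.

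The 2 glucose transporters differ in affinity, with Slc2a3 encoding the high-affinity form. Slc2a3 had 42246, 44076 and 42420.1 in Serum/LIF, 59198, 54500.3 and 56431 at 3 h, 60819, 64200.4 and 62364 at 9 h and 57344, 52146 and 55622 at 24 h. Every EMM library exceeded Serum/LIF, and Slc2a3 rose by 0.40 (SE 0.0416, adjusted p = 1.65e-06), 0.54 (SE 0.0417, adjusted p = 7.46e-08) and 0.36 (SE 0.0416, adjusted p = 3.41e-06). Slc2a1, the widespread basal transporter, had 18146, 18717 and 16578 in Serum/LIF and 17163, 15486 and 16003, 19913, 22115 and 21485 and 17441, 16032 and 16687 at 3, 9 and 24 h. Its groups overlapped at 3 and 24 h, and it was called only at 9 h, as higher (0.25, SE 0.0543, adjusted p = 0.00136).

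Among the 10 preparatory genes 2, 4 and 2 were higher at 3, 9 and 24 h, beside 16.3%, 18.5% and 21.8% of all genes, and 3, 2 and 4 were lower, beside 18.2%, 19.7% and 22.2%. Hk2, the inducible hexokinase that traps glucose as glucose 6-phosphate, had 14065, 13521 and 13423 in Serum/LIF, 17205, 16206 and 16668 at 3 h, 18435, 20337 and 18523 at 9 h and 17032, 15345 and 16283 at 24 h. It was above Serum/LIF in every EMM library (log2 fold changes 0.29, SE 0.0469, adjusted p = 0.000136, 0.48, SE 0.047, adjusted p = 7.99e-07, and 0.25, SE 0.0469, adjusted p = 0.000376). The housekeeping hexokinase Hk1 had 1448, 1482 and 1432 in Serum/LIF and 1192, 1193 and 1130.1 at 3 h, −0.31 (SE 0.0664, adjusted p = 0.00128) on the log2 scale, and was not called at 9 h (1539, 1798 and 1483, log2 fold change 0.14, adjusted p = 0.0806) and 24 h (1716, 1510.3 and 1609.5, log2 fold change 0.15, adjusted p = 0.0672). Gpi1, the isomerase between glucose 6-phosphate and fructose 6-phosphate, rose furthest of this group by 24 h, from 11849, 11894 and 10379 in Serum/LIF to 12911, 12088 and 12395 at 3 h, 15684, 16253 and 15886 at 9 h and 16097, 14418 and 14411 at 24 h. Its log2 fold change was 0.13 (adjusted p = 0.0597) at 3 h, and it was called at 9 h (0.49, SE 0.0546, adjusted p = 3.31e-06) and 24 h (0.40, SE 0.0546, adjusted p = 1.93e-05), with no overlap at any time. Pfkp, the platelet-type phosphofructokinase, fell furthest of this group at 3 and 24 h, from 7565, 8171 and 7704 to 6473, 5786 and 6219.5 at 3 h, 6019, 6946 and 6986 at 9 h and 5829, 5465 and 6007 at 24 h. Every EMM library lay below Serum/LIF (log2 fold changes −0.34, SE 0.0593, adjusted p = 0.000231, −0.23, SE 0.0592, adjusted p = 0.00414, and −0.44, SE 0.0594, adjusted p = 1.67e-05). The 9 h call of Pfkp was lost without EMM 9 h replicate 1, Serum/LIF replicate 2 or Serum/LIF replicate 3, taken out one at a time (adjusted p = 0.0414, 0.0354 and 0.0117).

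Pgm2l1, which makes the cofactor glucose 1,6-bisphosphate, had 463, 498 and 509 in Serum/LIF and 654, 654 and 689, 549, 662 and 649 and 529.7, 592 and 493 at the 3 times. It was higher at 3 h (0.44, SE 0.0797, adjusted p = 0.000339) and 9 h (0.34, SE 0.0802, adjusted p = 0.00261) without overlap, and overlapped with Serum/LIF at 24 h (0.13, adjusted p = 0.18). The 9 h call of Pgm2l1 was lost without EMM 9 h replicate 2 or Serum/LIF replicate 1, taken out one at a time (adjusted p = 0.0155 and 0.0113). Aldoa had 55813, 55755 and 49558 in Serum/LIF, 51023, 48788 and 51215 at 3 h, 62136, 65753 and 61437 at 9 h and 62662, 59109 and 57242 at 24 h, and was called only at 9 h (0.23, SE 0.0487, adjusted p = 0.000986). The liver-type phosphofructokinase Pfkl was called at no time, with log2 fold changes from −0.09 to 0.13; its libraries measured 15984, 16272 and 15134 in Serum/LIF and 15673, 15577 and 15721, 16892, 18851 and 16042 and 15874, 13613 and 14958 at 3, 9 and 24 h. The muscle-type Pfkm was lower at 9 h (−0.48, SE 0.0633, adjusted p = 1.7e-05) and at 24 h (−0.25), the second call being lost without EMM 24 h replicate 2, Serum/LIF replicate 1 or Serum/LIF replicate 2, taken out one at a time (adjusted p = 0.0236, 0.0248 and 0.0195). Tpi1 was lower at 3 h (−0.30, SE 0.043, adjusted p = 4.16e-05) and Aldoc, the brain-type aldolase, at 24 h (−0.36, SE 0.0667, adjusted p = 0.000332).

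The 7 pay-off enzymes, which return ATP and NADH, gave 0 calls at 3 h and 1 at 9 h, of Gapdh (0.18, SE 0.0383, adjusted p = 0.000999), and 4 of them were lower at 24 h, where 22.2% of all genes were lower. At 9 h 18.5% of all genes were higher. Eno3, the muscle enolase, changed most. It had 995, 1044 and 893 in Serum/LIF, 963, 999.7 and 991 at 3 h, 857, 923 and 778 at 9 h and 771, 742 and 707 at 24 h. The first EMM times overlapped with Serum/LIF, and the 24 h libraries lay below it (−0.40, SE 0.0688, adjusted p = 0.00015). Eno1, the main enolase, had 41426, 42219 and 38841 in Serum/LIF, 42304, 40955 and 42717 at 3 h, 40325, 42298 and 38121 at 9 h and 35846, 31299.8 and 30633 at 24 h, again lower only at the last time (−0.33, SE 0.0556, adjusted p = 0.00015). Pgam1, phosphoglycerate mutase, was also lower at 24 h (−0.28, SE 0.0434, adjusted p = 5.61e-05), as was Pkm (−0.16), whose call was lost without EMM 24 h replicate 2, EMM 24 h replicate 3, Serum/LIF replicate 1 or Serum/LIF replicate 2, taken out one at a time (adjusted p = 0.0416, 0.0434, 0.0241 and 0.0588). Pgk1, phosphoglycerate kinase, and Eno2 overlapped with Serum/LIF at every time. Pgk1 spanned 10187 to 13094 and Eno2 174 to 252 over the 12 libraries.

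Of the 7 pentose phosphate genes 2 were higher and 0 lower at 3 h, 2 and 1 at 9 h, and 2 and 3 at 24 h, beside 16.3% and 18.2%, 18.5% and 19.7%, and 21.8% and 22.2% of all genes. Rpe, ribulose-phosphate 3-epimerase, had 2176, 2435 and 2519 in Serum/LIF, 3083, 3152 and 3277 at 3 h, 2716, 2713 and 2784 at 9 h and 2901, 3167 and 3014 at 24 h. No EMM group overlapped with Serum/LIF (log2 fold changes 0.42, SE 0.0506, adjusted p = 8.72e-06, 0.20, SE 0.0508, adjusted p = 0.00368, and 0.35, SE 0.0508, adjusted p = 3.38e-05), and the 9 h call was lost without Serum/LIF replicate 1 (adjusted p = 0.0124). Rpia, the isomerase that yields ribose 5-phosphate, was called only at 3 h (0.46, SE 0.0817, adjusted p = 0.00027). Pgd, which makes NADPH as it yields ribulose 5-phosphate, had 7875, 7733 and 6977 in Serum/LIF and 8129.6, 8139 and 7922, 9877, 9803 and 8319 and 9855, 8867 and 8917 at 3, 9 and 24 h. It was called at 9 h (0.31, SE 0.064, adjusted p = 0.000881) and 24 h (0.29, SE 0.064, adjusted p = 0.00123), and no group overlapped with Serum/LIF. Taldo1, transaldolase, had 7404, 7429 and 7114 in Serum/LIF, 7418, 7411 and 7594 at 3 h, 6511, 6764 and 6545 at 9 h and 6271, 5813 and 5964 at 24 h. It lay below Serum/LIF at 9 h (−0.15, SE 0.0367, adjusted p = 0.00361) and 24 h (−0.28, SE 0.0368, adjusted p = 1.12e-05), the first of these calls being lost without EMM 9 h replicate 1, EMM 9 h replicate 3, Serum/LIF replicate 1 or Serum/LIF replicate 2, taken out one at a time (adjusted p = 0.0334, 0.0226, 0.0237 and 0.0334). Tkt, transketolase, was lower at 24 h (−0.13), a call lost without EMM 24 h replicate 2, EMM 24 h replicate 3, Serum/LIF replicate 1 or Serum/LIF replicate 2, taken out one at a time (adjusted p = 0.0297, 0.0774, 0.0299 and 0.072). The entry enzyme G6pdx was lower at 24 h (−0.21, SE 0.042, adjusted p = 0.000489), and Pgls, the lactonase after it, was not called, its libraries spanning 1022 to 1860.1 with overlap at each time.

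Setting EMM 24 h against EMM 3 h separated the first response from the later one. Between these times 6 members were higher and 11 lower, beside 20.8% and 19.2% of all genes, and 0 members against 4.44% of all genes passed a log2 fold change of 1 in size. Ldhb rose further (0.64, SE 0.0465, adjusted p = 5.04e-08), as did Pfkfb4 (0.74, SE 0.118, adjusted p = 9.73e-05), Hk1 (0.46, SE 0.0659, adjusted p = 3.66e-05), Gpi1 (0.26, SE 0.0545, adjusted p = 0.000848), Aldoa (0.25, SE 0.0487, adjusted p = 0.000638) and Pfkfb1 (0.32), the last call being lost without EMM 24 h replicate 2 or EMM 3 h replicate 3, taken out one at a time (adjusted p = 0.032 and 0.0291). Pfkfb3 came down from its early height (−0.44, SE 0.078, adjusted p = 0.000242), and Ldha (−0.59, SE 0.0481, adjusted p = 1.52e-07), Slc16a1 (−0.50, SE 0.04, adjusted p = 1.43e-07), Eno3 (−0.41, SE 0.0683, adjusted p = 0.00014) and Eno1 (−0.37, SE 0.0556, adjusted p = 6.5e-05) fell. The other lower members were Pgam1, Pkm, Taldo1, G6pdx, Tkt and Pgm2l1, the last of which lost its call without EMM 24 h replicate 1, EMM 24 h replicate 3, EMM 3 h replicate 1, EMM 3 h replicate 2 or EMM 3 h replicate 3, taken out one at a time (adjusted p = 0.0138, 0.0243, 0.0103, 0.0113 and 0.0203).

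The promoters of Ldha, Ldhb and Pfkfb3 are shown because these 3 genes carry the largest changes of the lactate and fructose 2,6-bisphosphate groups in the time course. The sequences are from RefSeq on GRCm38.p6, 180 bases on the gene's strand, with matches to CACGTG, the E-box read by the MYC and HIF families, and to ACGTG or GCGTG, the core bound by HIF, in capitals, both strands searched; every CACGTG also holds ACGTG. The Ldha window, chr7:46845604-46845783 on the plus strand, lies upstream of 1 of its RefSeq starts and in an intron of a longer Ldha transcript, and holds CACGTG at 2 places. The Ldhb window, chr6:142507978-142508157 on the minus strand, lies in no annotated gene and holds 1 core match. The Pfkfb3 window, chr2:11502111-11502290 on the minus strand, lies upstream of an internal start within Pfkfb3 and holds 1 CACGTG. The windows of Ldha and Pfkfb3 shown are those with CACGTG: each gene has a second RefSeq start, whose 250 bases before it (chr7:46846832-46847081 and chr2:11553930-11554179) hold 0 CACGTG and 1 core match.
Ldha: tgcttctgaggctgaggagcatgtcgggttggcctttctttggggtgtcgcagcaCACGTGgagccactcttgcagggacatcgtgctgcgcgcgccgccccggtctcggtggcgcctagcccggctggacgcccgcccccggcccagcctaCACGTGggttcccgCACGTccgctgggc
Ldhb: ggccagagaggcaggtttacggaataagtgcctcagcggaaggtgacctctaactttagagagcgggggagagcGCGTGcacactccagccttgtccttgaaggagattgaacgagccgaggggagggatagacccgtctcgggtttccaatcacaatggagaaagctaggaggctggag
Pfkfb3: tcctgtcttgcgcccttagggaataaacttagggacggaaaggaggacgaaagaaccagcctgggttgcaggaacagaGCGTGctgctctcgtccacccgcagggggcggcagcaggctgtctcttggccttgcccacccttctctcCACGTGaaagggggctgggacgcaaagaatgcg
Of the 35 members 34 had an entry, with 52 promoter windows in all from 250 bases before to 50 after a start, and Slc2a3 was not matched. CACGTG was present in 6 of the 52 windows (11.5%), against 7.15% of all 32851 promoters and 9.69% of those of tested genes. ACGTG or GCGTG was present in 39 of the 52 (75.0%), against 43.8% of all promoters and 60.4% of those of tested genes. In the shorter window from 100 bases before to 50 after a start CACGTG was in 5.77% of the members' windows, 4.35% of all promoters and 6.15% of those of tested genes. The shares with ACGTG or GCGTG there were 51.9% of the members' windows, 29.3% of all promoters and 42.3% of those of tested genes. These are matches of letters and not measured binding.

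The passage experiment asks what the same media do over 10 and 20 passages. In EMM the members were more often higher than lower against Serum/LIF: Ldhb, Pfkfb2, Gpi1 and Pfkp were higher at both passages, while Ldha, lower after 24 h, did not pass the threshold at either. At P10 13 members were called higher and 3 lower, where 18.7% of all genes were higher and 18.7% lower. At P20 13 were higher and 1 lower, against 13.6% and 12.5% of all genes. Past 1 on the log2 scale in either direction the counts were 1 at P10 and 3 at P20, against 17.1% and 9.63% of all genes. Median log2 fold changes over the members were 0.29 at P10 and 0.32 at P20, and those over all genes 0.01 and 0.00. The P20 count of higher members was 22 when only the compared groups entered the model, where 20.6% of all genes were higher. It was 8 without P20 Serum/LIF replicate 3 (10% of all genes). The P10 count of lower members was 1 without P10 EMM replicate 2 or P10 Serum/LIF replicate 2 (14.8% and 15.2% of all genes). With library totals in place of TMM 10 members were higher and 4 lower at P10, against 14.5% and 22.3% of all genes. At P20 they gave 11 and 1, against 9.84% and 16.8%.

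In 2i/LIF members moved in both directions. The pay-off enzymes Pgk1, Pgam1, Eno1, Eno3 and Pkm, the transporter genes Slc2a1 and Slc16a3, Pfkl and Ldha were lower than in Serum/LIF at both passages, and Hk1, Ldhb, Tigar, Pfkfb2, Pgd and Rpia were higher. At P10 11 members were higher and 12 lower, against 26.4% and 25.6% of all genes, and 9 passed a log2 fold change of 1 in size, against 26.4% of all genes. At P20 7 were higher and 14 lower, against 21.0% and 23.2%, and 10 passed the fold, against 22.3%. Of the 7 pay-off enzymes 5 were lower and 0 higher at each passage, and the others were not called, Gapdh at 0.24 and 0.14 and Eno2 at −0.05 and −0.27. The count of higher members at P20 was 12 without P20 2i/LIF replicate 3 (18.8% of all genes). With library totals in place of TMM 6 were higher and 14 lower at P20, against 15.8% and 27.2% of all genes.

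EMM against 2i/LIF combined these differences, with more members higher than lower in EMM. At P10 17 members were higher in EMM and 5 lower, against 22.9% and 22.2% of all genes, and at P20 22 were higher and 6 lower, against 25.7% and 22.9%. The fold of 1 on the log2 scale was passed by 8 members at P10 and 14 at P20, against 22.1% and 25.3% of all genes. The members' medians were 0.24 at P10 and 0.65 at P20, beside 0.01 and 0.02 over all genes. Among the pay-off enzymes 5 were higher at P10 and 6 at P20, and 0 were lower. The 3 media share their libraries across these comparisons, so the values of 1 gene in them are not independent.

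**Figure D2:**
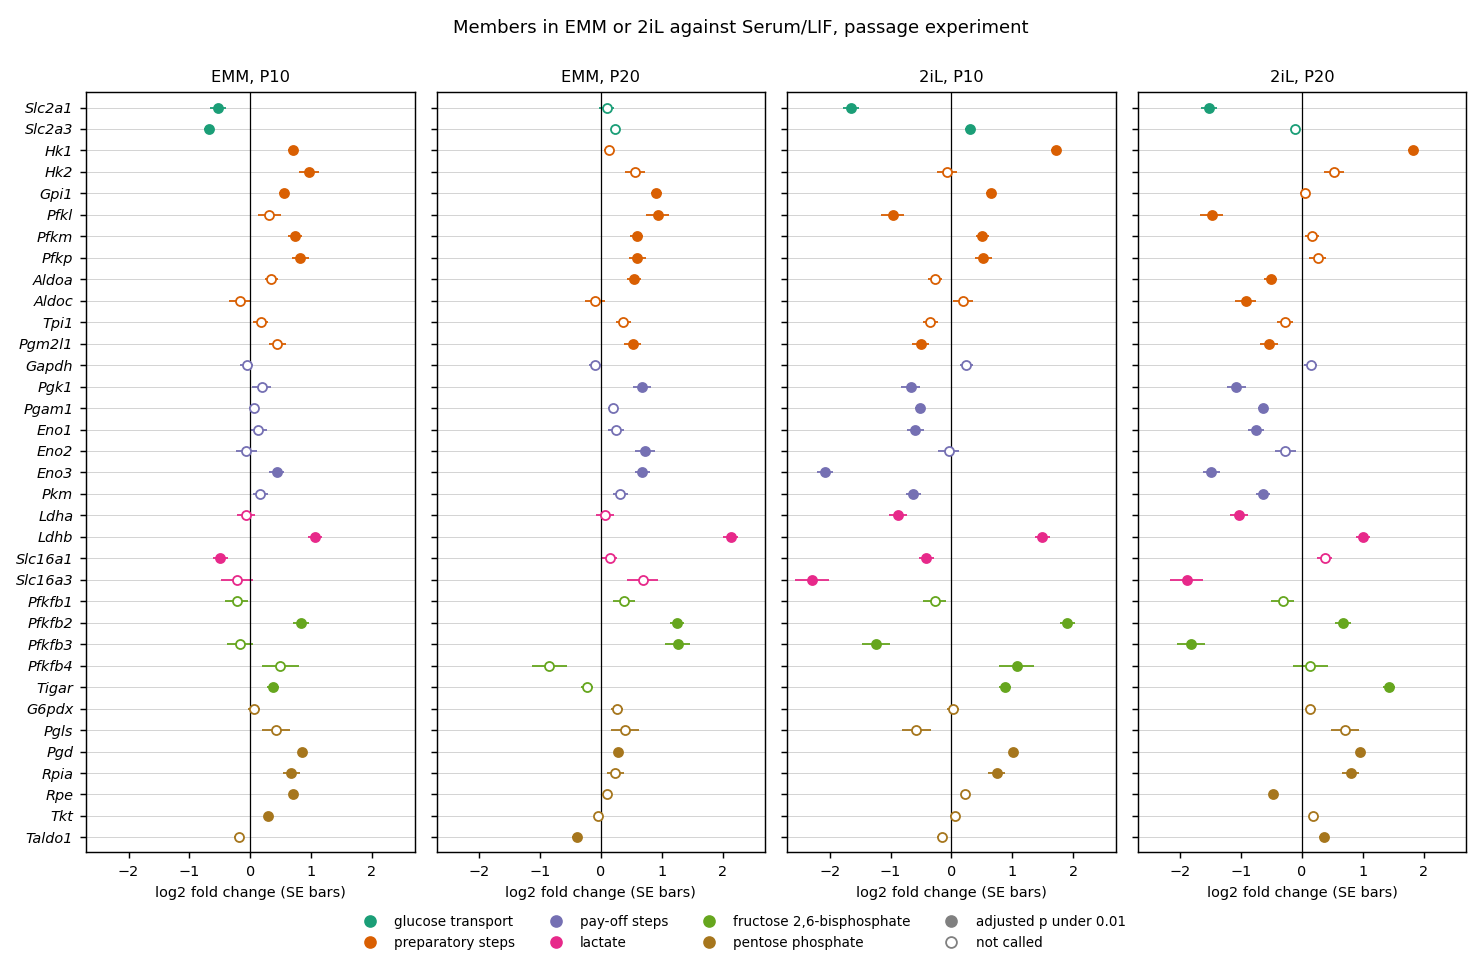
Log2 fold changes of the 35 members at P10 and P20 in EMM and in 2i/LIF, each against Serum/LIF, coloured by role, with bars of 1 SE and 3 libraries per group. Filled points passed an adjusted p of 0.01 and open points did not. Ldhb reaches 2.13 in EMM against Serum/LIF at P20, and Slc16a3 and Eno3 lie at −2.29 and −2.08 in 2i/LIF against Serum/LIF at P10.

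Pfkfb3 separated the media most at P20. Pfkfb3 measured 507, 614 and 515 in Serum/LIF, 501, 455 and 497 in EMM and 294, 257 and 156 in 2i/LIF at P10. By P20 Pfkfb3 had 523, 604 and 576 in Serum/LIF, 1416, 1297 and 1374 in EMM and 195, 206 and 86.2 in 2i/LIF. Its 2i/LIF libraries were lowest at both passages, EMM did not overlap with Serum/LIF at either, and EMM was the highest group at P20. EMM against Serum/LIF gave −0.17 (adjusted p = 0.534) at P10 and 1.26 (SE 0.206, adjusted p = 0.000107) at P20. In 2i/LIF Pfkfb3 was lower at P10, at −1.24 (SE 0.225, adjusted p = 0.000106), and at P20, at −1.83 (SE 0.232, adjusted p = 2.49e-06). EMM exceeded 2i/LIF by 1.07 (SE 0.229, adjusted p = 0.000624) at P10 and 3.09 (SE 0.233, adjusted p = 2.21e-09) at P20, the largest difference of any member in any comparison. At P10 Pfkfb2 stood at 130.2, 157 and 174 in Serum/LIF, 274, 274 and 270.3 in EMM and 491, 555 and 662 in 2i/LIF. The P20 Pfkfb2 counts were 146, 156 and 161 in Serum/LIF, 391, 365 and 349.6 in EMM and 214, 258 and 259 in 2i/LIF. Pfkfb2 was above Serum/LIF in EMM (0.83, SE 0.127, adjusted p = 2.75e-05, and 1.25, SE 0.122, adjusted p = 3.91e-07) and in 2i/LIF (1.90, SE 0.123, adjusted p = 3.19e-10, and 0.67, SE 0.126, adjusted p = 0.000186), without overlap, but EMM was below 2i/LIF at P10 (−1.07, SE 0.12, adjusted p = 6.19e-07) and above it at P20 (0.58, SE 0.119, adjusted p = 0.000372).

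For Tigar the counts at P10 were 958, 850.2 and 801 in Serum/LIF, 1095, 1069 and 1230.1 in EMM and 1728, 1462 and 1625 in 2i/LIF. At P20 Tigar had 968, 835 and 875 in Serum/LIF, 767, 805 and 721 in EMM and 2425, 2109 and 2669.6 in 2i/LIF. Tigar was highest in 2i/LIF at both passages without overlap with the other media (0.88, SE 0.0987, adjusted p = 4.15e-07, and 1.43, SE 0.099, adjusted p = 1.07e-09 against Serum/LIF). In EMM it was above Serum/LIF at P10 (0.38), a call lost without P10 EMM replicate 3, P10 Serum/LIF replicate 2 or P10 Serum/LIF replicate 3, taken out one at a time (adjusted p = 0.0198, 0.0187 and 0.0231), and not called at P20 (−0.22, adjusted p = 0.0829). Pfkfb4 measured 26, 48.6 and 33.5 in Serum/LIF, 42.6, 65.5 and 45.8 in EMM and 45.5, 77 and 101 in 2i/LIF at P10. By P20 Pfkfb4 had 68.3, 61.4 and 43.8 in Serum/LIF, 27, 38.6 and 30.5 in EMM and 70.5, 63.5 and 59.4 in 2i/LIF. These are the lowest counts of the named members, and the 2i/LIF and Serum/LIF ranges overlapped at both passages. Pfkfb4 was called higher in 2i/LIF at P10 (1.07), a call lost without P10 2i/LIF replicate 2, P10 2i/LIF replicate 3, P10 Serum/LIF replicate 1 or P10 Serum/LIF replicate 3, taken out one at a time (adjusted p = 0.0106, 0.0445, 0.0256 and 0.0154). EMM was called below 2i/LIF at P20 (−0.98), a call lost without P20 2i/LIF replicate 1, P20 2i/LIF replicate 2, P20 2i/LIF replicate 3, P20 EMM replicate 1 or P20 EMM replicate 3, taken out one at a time (adjusted p = 0.0172, 0.0197, 0.0129, 0.0319 and 0.0267). Against Serum/LIF at P20 the EMM value was −0.85 (adjusted p = 0.0256), called with only the compared groups (adjusted p = 0.00745). Pfkfb1 was called only in EMM against 2i/LIF at P20 (0.70), and lost the call without P20 2i/LIF replicate 1, P20 2i/LIF replicate 3 or P20 EMM replicate 1, taken out one at a time (adjusted p = 0.0128, 0.0106 and 0.0172).

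The lactate dehydrogenase genes kept Ldhb high in both alternative media. At P10 Ldhb stood at 4423, 4663 and 4119.6 in Serum/LIF, 9222, 9562 and 8869.8 in EMM and 12486, 11761 and 12929 in 2i/LIF. The P20 Ldhb counts were 2704, 2619.9 and 1951 in Serum/LIF, 9743, 10509.8 and 11710.3 in EMM and 4934, 5625 and 4036 in 2i/LIF. EMM and 2i/LIF exceeded Serum/LIF in all libraries. The log2 fold change of Ldhb in EMM was 1.07 (SE 0.119, adjusted p = 7.52e-07) at P10 and 2.13 (SE 0.123, adjusted p = 7.39e-10) at P20, or 2.09- and 4.39-fold. In 2i/LIF it was 1.49 (SE 0.12, adjusted p = 5.82e-09) and 1.00 (SE 0.12, adjusted p = 1.2e-06). EMM lay above 2i/LIF at P20 (1.13, SE 0.119, adjusted p = 1.94e-07) and below it at P10 (−0.43), where the call was lost without P10 2i/LIF replicate 1, P10 2i/LIF replicate 3, P10 EMM replicate 1, P10 EMM replicate 2 or P10 EMM replicate 3, taken out one at a time (adjusted p = 0.0112, 0.02, 0.0149, 0.0113 and 0.022). For Ldha the counts at P10 were 32746, 31274 and 29286 in Serum/LIF, 30764, 28449 and 29390.2 in EMM and 21898, 16168 and 12879.9 in 2i/LIF. At P20 Ldha had 29167, 26415 and 27197 in Serum/LIF, 28002, 29356 and 29685 in EMM and 13956, 15829 and 10524 in 2i/LIF. For Ldha EMM overlapped with Serum/LIF, with log2 fold changes of −0.07 (adjusted p = 0.701) and 0.07 (adjusted p = 0.733), the second of which turned negative with library totals in place of TMM. All 2i/LIF libraries were below the other media (−0.87, SE 0.148, adjusted p = 5.27e-05, and −1.04, SE 0.148, adjusted p = 1.02e-05 against Serum/LIF). EMM against 2i/LIF gave 0.80 (SE 0.148, adjusted p = 0.00016) and 1.11 (SE 0.148, adjusted p = 3.83e-06) for Ldha.

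Slc16a3 measured 2721, 2939 and 2547 in Serum/LIF, 2587, 2289.6 and 2178 in EMM and 775, 517 and 404 in 2i/LIF at P10. By P20 Slc16a3 had 2957, 2868 and 3098 in Serum/LIF, 4697, 4757 and 4944 in EMM and 949, 1111 and 349 in 2i/LIF. The 2i/LIF libraries of Slc16a3 lay far below both other media, at −2.29 (SE 0.279, adjusted p = 1.15e-06) and −1.90 (SE 0.272, adjusted p = 1.05e-05) against Serum/LIF. EMM overlapped with Serum/LIF at P10 (−0.22, adjusted p = 0.515) and lay above it at P20 (0.69, adjusted p = 0.0396), a value under the threshold in the model of all groups that passed it with only the compared groups (adjusted p = 1.29e-06). Against 2i/LIF, EMM was higher by 2.08 (SE 0.279, adjusted p = 4.93e-06) and 2.59 (SE 0.276, adjusted p = 2.31e-07). At P10 Slc16a1 stood at 2731, 2752 and 2465 in Serum/LIF, 1819, 1892 and 1954 in EMM and 2429.8, 1987 and 1572 in 2i/LIF. The P20 Slc16a1 counts were 2429.6, 2309 and 2249.9 in Serum/LIF, 2579, 2621 and 2550.4 in EMM and 3583, 2970.3 and 2532 in 2i/LIF. Slc16a1 was lower in EMM at P10 (−0.49) and in 2i/LIF at P10 (−0.41), and no group overlapped with Serum/LIF at either passage. The EMM call was lost without P10 EMM replicate 1, P10 EMM replicate 2, P10 Serum/LIF replicate 1 or P10 Serum/LIF replicate 2, taken out one at a time (adjusted p = 0.0154, 0.0117, 0.0159 and 0.0142). The 2i/LIF call was lost without P10 2i/LIF replicate 2, P10 2i/LIF replicate 3, P10 Serum/LIF replicate 1, P10 Serum/LIF replicate 2 or P10 Serum/LIF replicate 3, taken out one at a time (adjusted p = 0.0216, 0.0571, 0.031, 0.0272 and 0.0101). At P20 the values were 0.15 (adjusted p = 0.362) in EMM and 0.37 (adjusted p = 0.0155) in 2i/LIF. The latter passed the threshold at 0.49 without P20 2i/LIF replicate 3 (adjusted p = 0.0032) and without the filter on low counts (adjusted p = 0.000894).

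For Slc2a1 the counts at P10 were 13097, 13916 and 13431 in Serum/LIF, 9236, 9049 and 9688 in EMM and 4718, 3937 and 4261 in 2i/LIF. At P20 Slc2a1 had 11047, 11175 and 11079.5 in Serum/LIF, 12077, 11698 and 11749 in EMM and 4342, 4559 and 2662 in 2i/LIF. Slc2a1 was lowest in 2i/LIF at both passages, with −1.65 (SE 0.133, adjusted p = 6.04e-09) and −1.53 (SE 0.133, adjusted p = 2.03e-08) against Serum/LIF. In EMM it was lower at P10 (−0.53), a call lost without P10 EMM replicate 2 or P10 Serum/LIF replicate 2, taken out one at a time (adjusted p = 0.0117 and 0.0102), and was 0.09 (adjusted p = 0.605) at P20. EMM stood above 2i/LIF by 1.11 (SE 0.131, adjusted p = 1.05e-06) and 1.62 (SE 0.133, adjusted p = 6.93e-09). Slc2a3 measured 24202, 28507 and 24584 in Serum/LIF, 17270.0, 15369.5 and 15462 in EMM and 29418, 31599 and 34033 in 2i/LIF at P10. By P20 Slc2a3 had 21707, 23346 and 21779 in Serum/LIF, 27052, 25664 and 26191 in EMM and 19997, 21995 and 19965 in 2i/LIF. Slc2a3, higher at every time in the first 24 h of EMM, was lower in EMM at P10 (−0.68, SE 0.0797, adjusted p = 1.27e-06), and above Serum/LIF without passing the threshold at P20 (0.24, adjusted p = 0.0226). The P20 value was called with only the compared groups (adjusted p = 0.00237). In 2i/LIF it was higher at P10 (0.30), a call lost without P10 2i/LIF replicate 3, P10 Serum/LIF replicate 1 or P10 Serum/LIF replicate 3, taken out one at a time (adjusted p = 0.0223, 0.0167 and 0.0155), and overlapped with Serum/LIF at P20 (−0.11, adjusted p = 0.255). EMM against 2i/LIF turned from −0.98 (SE 0.0801, adjusted p = 9.05e-09) at P10 to 0.35 (SE 0.0794, adjusted p = 0.000968) at P20.

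**Figure D3:**
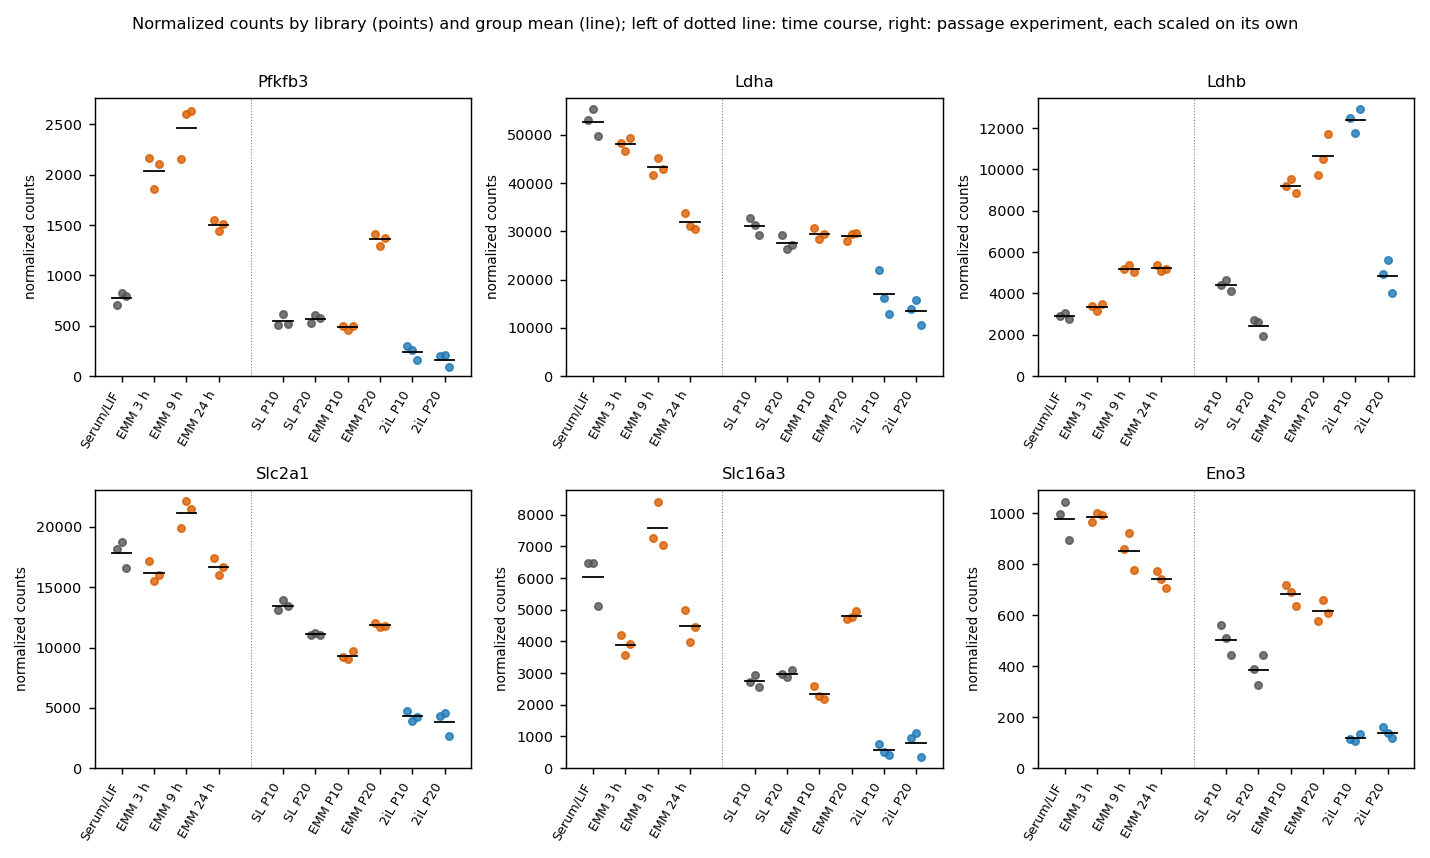
Normalized counts of Pfkfb3, Ldha, Ldhb, Slc2a1, Slc16a3 and Eno3 in each library, by group, 1 point per library, with each experiment scaled on its own. Ldhb in the passage experiment spans 1951 to 4663 in the Serum/LIF libraries and 8869.8 to 11710.3 in EMM.

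The hexokinases differed by medium. At P10 Hk1 stood at 845, 936 and 969 in Serum/LIF, 1479, 1384 and 1617 in EMM and 3298, 2833 and 2931 in 2i/LIF. The P20 Hk1 counts were 1010.5, 1027 and 881 in Serum/LIF, 1066, 1058 and 1082 in EMM and 3534, 3618 and 3167 in 2i/LIF. Hk1 was highest in 2i/LIF, at 1.72 (SE 0.086, adjusted p = 1.04e-11) and 1.82 (SE 0.086, adjusted p = 6.51e-12) against Serum/LIF, or 3.3- and 3.53-fold. In EMM it was higher at P10 (0.70, SE 0.0858, adjusted p = 2.22e-06) and 0.13 (adjusted p = 0.229) at P20. For Hk2 the counts at P10 were 6608, 6951 and 7081 in Serum/LIF, 12255, 13050.3 and 14972 in EMM and 7453, 5867 and 6308 in 2i/LIF. At P20 Hk2 had 6878, 7336 and 7274 in Serum/LIF, 10799, 10616 and 10239 in EMM and 13811, 10309.5 and 6783 in 2i/LIF. Hk2 was higher in EMM at P10 (0.96, SE 0.163, adjusted p = 8.24e-05), and its EMM libraries were above Serum/LIF at P20 as well (0.56, adjusted p = 0.0106), a value that passed the threshold with only the compared groups (adjusted p = 4.84e-06). The 2i/LIF libraries of Hk2 overlapped with Serum/LIF at both passages (−0.07, adjusted p = 0.715, and 0.52, adjusted p = 0.0106). The P20 value was called with DESeq2 (adjusted p = 0.00644), without the filter on low counts (adjusted p = 4.38e-07) and, at 0.75, without P20 2i/LIF replicate 3 (adjusted p = 3.07e-05).

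Gpi1 measured 6489.7, 7328 and 7077 in Serum/LIF, 11108, 9807 and 9722 in EMM and 10565, 11419 and 10884 in 2i/LIF at P10. By P20 Gpi1 had 8423, 8629 and 7884 in Serum/LIF, 16039.9, 14956 and 15969.6 in EMM and 8249, 9741 and 7832 in 2i/LIF. Gpi1 was above Serum/LIF in EMM at both passages (0.55, SE 0.0829, adjusted p = 2.32e-05, and 0.91, SE 0.083, adjusted p = 1.75e-07), and in 2i/LIF at P10 (0.65, SE 0.0829, adjusted p = 1.94e-06) with overlap at P20. At P10 Pfkl stood at 8302, 8199.8 and 7583 in Serum/LIF, 9624, 9163 and 11186 in EMM and 5529.8, 3822 and 3025 in 2i/LIF. The P20 Pfkl counts were 7434, 7302 and 6518 in Serum/LIF, 13119, 13201 and 14216 in EMM and 2878, 3037 and 1684 in 2i/LIF. Pfkl was lowest in 2i/LIF (−0.96, SE 0.189, adjusted p = 0.000232, and −1.49, SE 0.192, adjusted p = 3.04e-06 against Serum/LIF) and highest in EMM, where it passed the threshold at P20 (0.93, SE 0.187, adjusted p = 0.000722) and not at P10 (log2 fold change 0.31, SE 0.186, adjusted p = 0.173). EMM exceeded 2i/LIF by 1.28 (SE 0.19, adjusted p = 1.58e-05) and 2.42 (SE 0.197, adjusted p = 6.36e-09) for Pfkl. For Pfkp the counts at P10 were 4846, 6087 and 6183 in Serum/LIF, 11051, 9309.6 and 9799.8 in EMM and 9207, 8163 and 7206 in 2i/LIF. At P20 Pfkp had 6709.9, 7224 and 6847 in Serum/LIF, 10708, 10083 and 10598 in EMM and 8841, 9984 and 6058 in 2i/LIF. Pfkp was higher in EMM at P10 (0.82, SE 0.14, adjusted p = 9.24e-05) and at P20 (0.59), and higher in 2i/LIF at P10 (0.52). The P20 EMM call was lost without P20 EMM replicate 1, P20 Serum/LIF replicate 1 or P20 Serum/LIF replicate 3, taken out one at a time (adjusted p = 0.01, 0.0127 and 0.011). The P10 2i/LIF call was lost without P10 2i/LIF replicate 1 or P10 Serum/LIF replicate 1, taken out one at a time (adjusted p = 0.0185 and 0.022). Pfkm was higher in EMM at P10 (0.74, SE 0.112, adjusted p = 2.54e-05) and P20 (0.59, SE 0.112, adjusted p = 0.00046).

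Aldoa measured 26676, 27753 and 25608 in Serum/LIF, 35139, 33565 and 32771 in EMM and 25455, 21818 and 19082 in 2i/LIF at P10. By P20 Aldoa had 29134, 27848 and 26716 in Serum/LIF, 40306, 40446 and 41308 in EMM and 19565, 23014 and 16084 in 2i/LIF. Aldoa ran in the order EMM, Serum/LIF, 2i/LIF at both passages with no overlap between neighbours. Its calls were EMM against Serum/LIF at P20 (0.54, SE 0.108, adjusted p = 0.000641), 2i/LIF against Serum/LIF at P20 (−0.51, SE 0.108, adjusted p = 0.000556), and EMM against 2i/LIF at P10 (0.61, SE 0.108, adjusted p = 0.0001) and P20 (1.06, SE 0.109, adjusted p = 1.46e-07). At P10 Pgm2l1 stood at 242, 269 and 278 in Serum/LIF, 367, 318 and 387 in EMM and 151, 155 and 238 in 2i/LIF. The P20 Pgm2l1 counts were 260.5, 264 and 268 in Serum/LIF, 376, 372 and 389.5 in EMM and 214, 164 and 176 in 2i/LIF. Pgm2l1 ran in the same order, and EMM exceeded 2i/LIF by 0.95 (SE 0.147, adjusted p = 2.39e-05) and 1.06 (SE 0.144, adjusted p = 4.53e-06). Its EMM call against Serum/LIF at P20 (0.52) was lost without P20 EMM replicate 1, P20 EMM replicate 2, P20 EMM replicate 3, P20 Serum/LIF replicate 1, P20 Serum/LIF replicate 2 or P20 Serum/LIF replicate 3, taken out one at a time (adjusted p = 0.0167, 0.0161, 0.0222, 0.022, 0.0209 and 0.0175). Its 2i/LIF calls of −0.51 at P10 and −0.54 at P20 were also lost without single libraries, at P10 without P10 2i/LIF replicate 1, P10 2i/LIF replicate 2, P10 Serum/LIF replicate 2 or P10 Serum/LIF replicate 3, taken out one at a time (adjusted p = 0.0296, 0.0344, 0.0174 and 0.0226) and at P20 without P20 2i/LIF replicate 2, P20 2i/LIF replicate 3, P20 Serum/LIF replicate 1, P20 Serum/LIF replicate 2 or P20 Serum/LIF replicate 3, taken out one at a time (adjusted p = 0.0294, 0.0171, 0.0102, 0.0135 and 0.0132). Tpi1 was higher in EMM than in 2i/LIF at P20 (0.65, SE 0.125, adjusted p = 0.000205), and Aldoc was lower in 2i/LIF than in Serum/LIF at P20 (−0.93, SE 0.17, adjusted p = 0.000147).

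Of the pay-off enzymes Eno3 moved most. For Eno3 the counts at P10 were 559, 509.9 and 442 in Serum/LIF, 718, 689 and 635 in EMM and 113, 106 and 134 in 2i/LIF. At P20 Eno3 had 389, 326 and 442 in Serum/LIF, 576, 659 and 608 in EMM and 159.8, 138 and 119.7 in 2i/LIF. Its 2i/LIF libraries were below, and its EMM libraries above, all Serum/LIF libraries of the same passage. Against Serum/LIF, Eno3 was lower in 2i/LIF, at −2.08 (SE 0.137, adjusted p = 3.79e-10) and −1.49 (SE 0.136, adjusted p = 3.89e-08). It was higher in EMM at P20 (0.68, SE 0.121, adjusted p = 0.000238) and at P10 (0.44), the P10 call being lost without P10 EMM replicate 1, P10 EMM replicate 2, P10 Serum/LIF replicate 2 or P10 Serum/LIF replicate 3, taken out one at a time (adjusted p = 0.03, 0.0196, 0.0185 and 0.0338). EMM exceeded 2i/LIF by 2.52 (SE 0.138, adjusted p = 4.39e-11) and 2.17 (SE 0.134, adjusted p = 1.53e-10). Pgk1 measured 26553, 28387 and 24831 in Serum/LIF, 30482, 30058 and 30252 in EMM and 20928, 15964 and 13233 in 2i/LIF at P10. By P20 Pgk1 had 23479, 22356 and 20505 in Serum/LIF, 33876, 34336 and 37833 in EMM and 11750.2, 12109 and 7541 in 2i/LIF. Pgk1, with the largest share of windows in common with other genes, was lower in 2i/LIF (−0.67, SE 0.153, adjusted p = 0.000919, and −1.08, SE 0.154, adjusted p = 1e-05) and higher in EMM at P20 (0.68), the EMM call being lost without P20 EMM replicate 3 or P20 Serum/LIF replicate 3, taken out one at a time (adjusted p = 0.0102 and 0.0121). EMM against 2i/LIF gave 0.86 (SE 0.153, adjusted p = 0.000114) and 1.76 (SE 0.157, adjusted p = 2.16e-08) for Pgk1.

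At P10 Eno1 stood at 40598, 41593 and 40199 in Serum/LIF, 42126, 43682 and 48438 in EMM and 32413, 26538 and 22182 in 2i/LIF. The P20 Eno1 counts were 36273, 34732 and 32919 in Serum/LIF, 41027, 41056 and 41033 in EMM and 24906, 21073 and 15457 in 2i/LIF. Eno1 was lower in 2i/LIF (−0.59, SE 0.136, adjusted p = 0.000957, and −0.76, SE 0.136, adjusted p = 0.000119), without overlap, and was not called in EMM against Serum/LIF (0.13, adjusted p = 0.437, and 0.24, adjusted p = 0.167). For Eno2 the counts at P10 were 88.7, 113 and 120.3 in Serum/LIF, 92.4, 104 and 115 in EMM and 126, 94.4 and 93.7 in 2i/LIF. At P20 Eno2 had 92.4, 122 and 83.8 in Serum/LIF, 167, 161 and 172 in EMM and 89.3, 77.6 and 84.3 in 2i/LIF. Eno2 overlapped with Serum/LIF at P10 in both media and was higher in EMM at P20 (0.73), a call lost without P20 Serum/LIF replicate 1 or P20 Serum/LIF replicate 3, taken out one at a time (adjusted p = 0.0126 and 0.0123), and against 2i/LIF at P20 (1.00, SE 0.169, adjusted p = 5.17e-05). Pgam1 and Pkm followed Eno1, with −0.52 (SE 0.0804, adjusted p = 1.84e-05) and −0.64 (SE 0.0806, adjusted p = 2.08e-06) for Pgam1 and −0.63 (SE 0.119, adjusted p = 0.000168) and −0.64 (SE 0.119, adjusted p = 0.000156) for Pkm in 2i/LIF against Serum/LIF. Gapdh did not pass the threshold in any of these 6 comparisons, its log2 fold changes lying between −0.30 and 0.24, and was called in 2i/LIF against Serum/LIF at P20 (adjusted p = 0.00319) without P20 2i/LIF replicate 1, a library where it stood at 59475 against 86103 and 83468 in the others. In EMM against 2i/LIF at P10 it was called without the filter on low counts (adjusted p = 0.00412).

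Of the 7 pentose phosphate genes 4 were higher and 0 lower in EMM against Serum/LIF at P10, and 1 and 1 at P20. All genes gave 18.7% and 18.7%, and 13.6% and 12.5%. In 2i/LIF against Serum/LIF 2 were higher and 0 lower at P10, and 3 and 1 at P20. The all-gene shares there were 26.4% and 25.6%, and 21.0% and 23.2%. Pgd measured 3035, 2833 and 2723 in Serum/LIF, 5011, 5109 and 5408 in EMM and 6170.2, 5677 and 5515 in 2i/LIF at P10. By P20 Pgd had 2834, 2716 and 2639 in Serum/LIF, 3128, 3322 and 3449 in EMM and 5202, 5469 and 5207 in 2i/LIF. Pgd was higher in both media at both passages, by 0.85 (SE 0.0658, adjusted p = 7.41e-09) and 0.27 in EMM and by 1.01 (SE 0.0659, adjusted p = 3.17e-10) and 0.96 (SE 0.0659, adjusted p = 9.79e-10) in 2i/LIF, and the P20 EMM call was lost without P20 EMM replicate 2, P20 EMM replicate 3, P20 Serum/LIF replicate 2 or P20 Serum/LIF replicate 3, taken out one at a time (adjusted p = 0.0124, 0.0198, 0.0123 and 0.0173). At P10 Rpe stood at 1004, 963 and 921 in Serum/LIF, 1586, 1615 and 1519 in EMM and 1052, 1233 and 1088 in 2i/LIF. The P20 Rpe counts were 896, 876 and 816 in Serum/LIF, 933, 922 and 929.9 in EMM and 594, 607 and 659 in 2i/LIF. Rpe was highest in EMM at both passages without overlap, at 0.71 (SE 0.073, adjusted p = 2.82e-07) and 0.10 (adjusted p = 0.274) against Serum/LIF, and was lower in 2i/LIF at P20 (−0.47, SE 0.0747, adjusted p = 3.06e-05). For Taldo1 the counts at P10 were 3262, 3014 and 3003 in Serum/LIF, 2497, 2963 and 2701 in EMM and 3152, 2592 and 2595 in 2i/LIF. At P20 Taldo1 had 2912, 2669 and 2635 in Serum/LIF, 2035, 2162 and 2083 in EMM and 3710.0, 3481 and 3318 in 2i/LIF. Taldo1 was lower in EMM at P20 (−0.39, SE 0.0828, adjusted p = 0.0012), the only member called lower there, and higher in 2i/LIF at P20 (0.35, SE 0.0829, adjusted p = 0.0014). The latter call was lost with library totals in place of TMM (0.23, adjusted p = 0.0204). Pgls measured 549.7, 538 and 549.5 in Serum/LIF, 571, 726 and 919 in EMM and 515, 295 and 299 in 2i/LIF at P10. By P20 Pgls had 524, 512 and 410.4 in Serum/LIF, 639, 663 and 603 in EMM and 1158, 702 and 548 in 2i/LIF. Pgls varied within groups, most in 2i/LIF, and its only call among these 6 comparisons was in EMM against 2i/LIF at P10 (1.00), lost without P10 2i/LIF replicate 2, P10 2i/LIF replicate 3 or P10 EMM replicate 3, taken out one at a time (adjusted p = 0.0118, 0.0136 and 0.0117). Rpia was higher in 2i/LIF (0.74, SE 0.139, adjusted p = 0.000157, and 0.80, SE 0.14, adjusted p = 9.4e-05) and in EMM at P10 (0.67, SE 0.141, adjusted p = 0.000683), while G6pdx, which sets entry into the pathway, was called in 0 of the 6 comparisons.

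Some members also differed between P10 and P20 within 2i/LIF, though the counts of higher members and of those past the fold lie near the all-gene shares. At P20 5 were higher and 9 lower than at P10, against 13.1% and 15.2% of all genes, and 3 passed a log2 fold change of 1 in size, against 10.1%. Ldhb (−1.35, SE 0.12, adjusted p = 1.71e-07), Pfkfb2 (−1.22, SE 0.12, adjusted p = 5.3e-07), Rpe (−0.85, SE 0.0749, adjusted p = 1.49e-07) and Slc2a3 (−0.62, SE 0.0796, adjusted p = 9.11e-06) were lower without overlap, and Tigar was higher (0.58, SE 0.097, adjusted p = 0.000127). Pgls, also past a log2 fold change of 1, was higher (1.11), a call lost without P10 2i/LIF replicate 3 (adjusted p = 0.0101). The P20 2i/LIF libraries spread widely for several members: replicate 3 had 86.2 of Pfkfb3 where the others had 195 and 206, and 349 of Slc16a3 where they had 949 and 1111. The count of higher members ranged from 2, without P10 2i/LIF replicate 3 (9.94% of all genes), to 7, without P20 2i/LIF replicate 3 (11.8%). It was 1 with only the 2 groups in the model (5.5% of all genes). Same-numbered 2i/LIF libraries of P10 and P20 deviated together. With these 2 groups alone and the number as a block 5 members were higher and 9 lower, against 14.4% and 14.8% of all genes. In that paired fit Aldoc lost its call (adjusted p = 0.0124) and Eno1 gained one (log2 fold change −0.39, adjusted p = 0.00369).

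The change of the EMM effect between passages, P20 minus P10 of EMM against Serum/LIF, was tested in the same model. It was called in 7 members, 3 higher and 4 lower, against 8.28% and 6.43% of all genes, and 2 of the 7 passed a log2 difference of 1 in size, against 8.40%. The count of higher members lies near the all-gene share, and was 6 with DESeq2, 8 with only the compared groups and 9 without the filter on low counts. In these fits 10.3%, 11.8% and 5.8% of all genes tested were higher. The EMM effect was more positive at P20 for Pfkfb3 (difference 1.43, SE 0.297, adjusted p = 0.00162), Ldhb (1.07, SE 0.167, adjusted p = 0.000132) and Slc2a3 (0.92, SE 0.112, adjusted p = 9.2e-06). It was less positive at P20 for Hk1 (−0.57, SE 0.12, adjusted p = 0.00191), Pgd (−0.58, SE 0.0925, adjusted p = 0.000159), Rpe (−0.60, SE 0.103, adjusted p = 0.00029) and Tigar (−0.60), whose call was lost without P10 EMM replicate 3, P10 Serum/LIF replicate 2, P10 Serum/LIF replicate 3, P20 EMM replicate 1, P20 EMM replicate 3 or P20 Serum/LIF replicate 1, taken out one at a time (adjusted p = 0.0111, 0.0128, 0.0124, 0.0103, 0.0146 and 0.0124). The difference for Pfkfb4 was −1.34 (adjusted p = 0.0247).

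Ratios of isozymes within a library compare members on the TPM scale without the scaling between libraries. The Ldhb to Ldha ratio had a geometric mean of 0.117 (range 0.116 to 0.117) in Serum/LIF of the time course, 0.147 (range 0.143 to 0.149) at 3 h, 0.254 (range 0.248 to 0.262) at 9 h and 0.346 (range 0.337 to 0.358) at 24 h, without overlap between any of these groups. At P10 it was 0.298 in Serum/LIF, 0.658 in EMM and 1.57 in 2i/LIF, and at P20 0.184, 0.772 and 0.767. The EMM and 2i/LIF libraries overlapped at P20 and not at P10. The Hk1 to Hk2 ratio was 0.0931 (range 0.0894 to 0.0958) in Serum/LIF and 0.324 (range 0.31 to 0.338) in 2i/LIF at P10, and the Slc2a1 to Slc2a3 ratio 1.08 (range 1.01 to 1.13) and 0.281 (range 0.257 to 0.331). The Slc16a3 to Slc16a1 ratio was 0.859 in Serum/LIF, 1.03 in EMM and 0.231 in 2i/LIF at P10, and 1.06, 1.55 and 0.199 at P20. Over 8 ratios and 11 comparisons, 70 of the 88 did not overlap, each with the smallest two-sided exact permutation p that 3 against 3 allows, 0.1, which is 0.126 after adjustment over the 88. The share of other gene pairs without overlap was not measured.

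**Figure D4:**
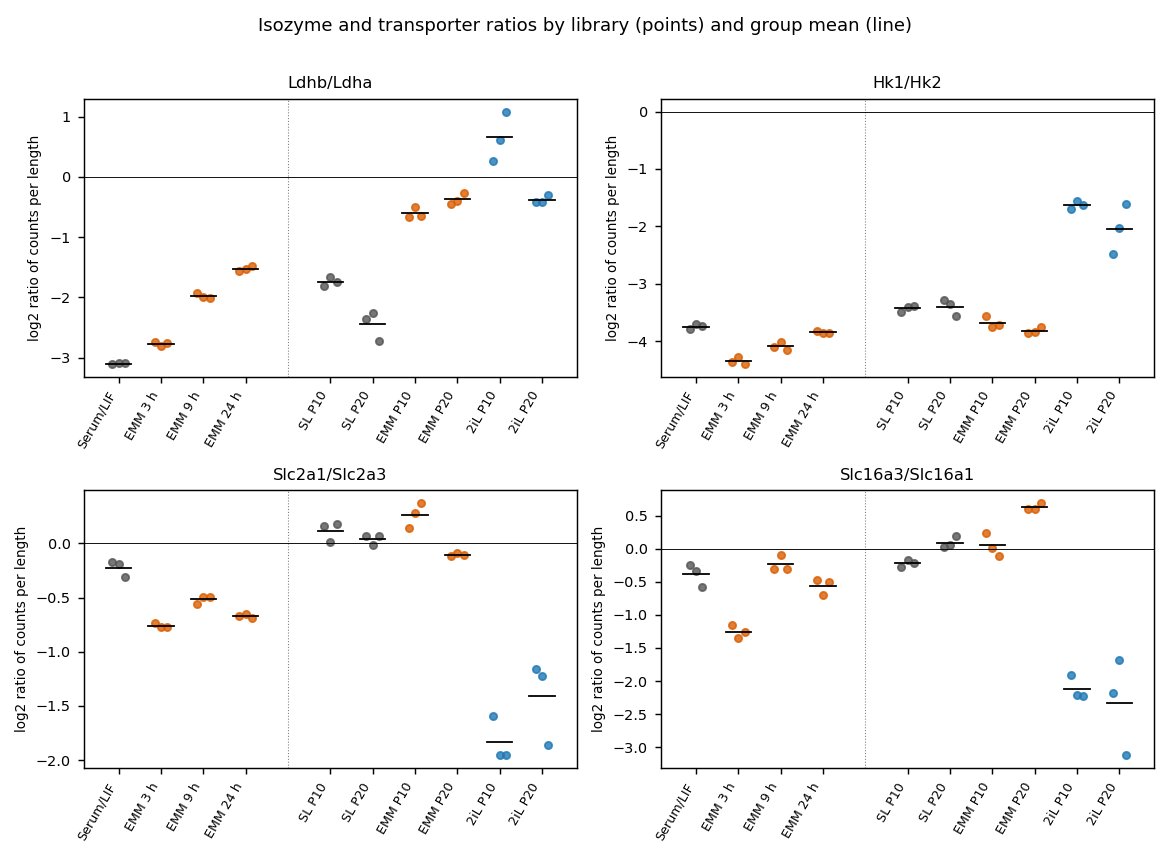
Log2 ratios of TPM within each library for Ldhb to Ldha, Hk1 to Hk2, Slc2a1 to Slc2a3 and Slc16a3 to Slc16a1, by group, 1 point per library. The Ldhb to Ldha ratio rises in each step of the time course from 0.117 in Serum/LIF to 0.346 at 24 h in linear terms.

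Summed over all 35 members, TPM came to between 14332 and 15481 in Serum/LIF of the time course and between 15570.1 and 16664 at 9 h, a ratio of means of 1.08 with no overlap, while 3 h (0.959) and 24 h (0.931) overlapped with Serum/LIF. At P20 the sum was 1.20 times that of Serum/LIF in EMM and 0.705 times in 2i/LIF, and at P10 it was 0.989 and 0.802 times, where the EMM libraries overlapped and the 2i/LIF libraries did not. EMM against 2i/LIF gave ratios of 1.23 at P10 and 1.70 at P20, again without overlap. The groups of 3 that did not overlap each had an exact permutation p of 0.1, the smallest this design can give. A few transcripts make up most of this sum, among them Pkm, Aldoa, Gapdh and Ldha.

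Position on chromosome 6 was shared by 8 members, Slc2a3, Hk2, Tpi1, Gapdh, Eno2, Ldhb, Tigar and Rpia, and Pgls lies on chromosome 8. In 2i/LIF against Serum/LIF the median log2 fold change of all tested genes on chromosome 6 was 0.11 at P10 and 0.33 at P20, and that on chromosome 8 was 0.45 at P20. Relative to the chromosome 6 median, Ldhb stood at 1.38 at P10 and 0.68 at P20 and Tigar at 0.78 and 1.10. Slc2a3, Tpi1, Gapdh and Eno2 lay below the chromosome 6 median at P20, at −0.44, −0.61, −0.18 and −0.60 relative to it. Pgls, at 0.70 at P20, stood 0.26 above the chromosome 8 median. Leaving the 8 chromosome 6 members and Pgls out of the 35, 7 members were higher in 2i/LIF at P10 and 4 at P20. The shares of all tested genes were 26.4% and 21.0%. In EMM against 2i/LIF at P20 the medians were −0.34 on chromosome 6 and −0.29 on chromosome 8. In 2i/LIF at P20 against P10 they were 0.18 and 0.32. The part of a chromosome-wide shift in these members was not tested.

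**Figure D5:**
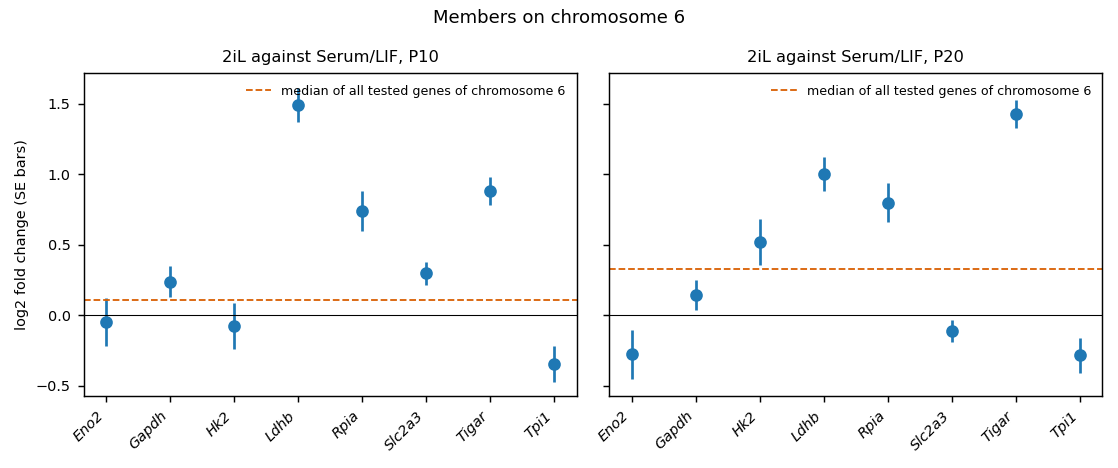
Log2 fold changes in 2i/LIF against Serum/LIF of the 8 members on chromosome 6 at P10 and P20, with bars of 1 SE and the median of all tested chromosome 6 genes as a dashed line (0.11 at P10 and 0.33 at P20). Ldhb, Tigar and Rpia lie above the line at both passages.

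A list of 36 further genes of the same pathways, such as other transporters, kinases, gluconeogenic enzymes and the ribose phosphate synthetases, gives the surroundings of the members. In the time course 24 of the 36 were tested, with 1 higher and 7 lower at 3 h, 3 and 9 at 9 h, and 2 and 8 at 24 h. All genes gave 16.3% and 18.2%, 18.5% and 19.7%, and 21.8% and 22.2%. Prps1 and Prps2, which turn ribose 5-phosphate into the precursor of nucleotides, were the most abundant of those past a log2 fold change of 1, at −1.75 (SE 0.0402, adjusted p = 1.39e-13) and −1.24 (SE 0.0425, adjusted p = 8.64e-12) at 24 h. In the passage experiment 27 were tested, with 5 higher and 6 lower in EMM at P10 and 6 and 11 at P20, and 5 and 7 in 2i/LIF at each passage. The shares of all genes were 18.7% and 18.7%, and 13.6% and 12.5%, in EMM, and 26.4% and 25.6%, and 21.0% and 23.2%, in 2i/LIF. Prps1 was lower in EMM at P10 (−1.80, SE 0.11, adjusted p = 3.94e-10) and P20 (−1.02, SE 0.106, adjusted p = 8.37e-07), and the insulin-responsive glucose transporter gene Slc2a4 was higher (1.85, SE 0.249, adjusted p = 7.26e-06, and 2.10, SE 0.242, adjusted p = 2.67e-06). Pgm1, a phosphoglucomutase gene, was higher in EMM at P20 (1.41, SE 0.234, adjusted p = 0.000122) and lower in 2i/LIF (−1.11, SE 0.246, adjusted p = 0.000724, and −2.01, SE 0.257, adjusted p = 2.71e-06). Pgm2, also on the list, went the other way in 2i/LIF at P10 (1.02, SE 0.103, adjusted p = 1.14e-07). H6pd, the glucose 6-phosphate dehydrogenase of the endoplasmic reticulum, was higher in 2i/LIF (1.19, SE 0.141, adjusted p = 8.62e-07, and 1.57, SE 0.14, adjusted p = 2.95e-08).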

How the data were processed

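Per the labels, libraries were made from total RNA with NEBNext Ultra II kits, the directional kit being named for the passage experiment, and the study's methods describe rRNA depletion. The authors aligned reads with STAR to mm10. The deposited gene counts come from featureCounts in the time course and are estimated counts from Salmon in the passage experiment, per the submitters' processing notes; versions and the annotation are not given. The study's methods name HTSeq for RNA-seq counting. Of the passage values 9.98% were not whole and were rounded.

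Groups came from the sample labels. Counts were filtered by edgeR's filterByExpr, scaled by TMM and fitted per experiment with all its groups in 1 quasi-likelihood model (edgeR 4.0.16 in R 4.3.3; checked on simulated data). P-values were adjusted by Benjamini-Hochberg over 16049 and 16054 genes, with a threshold of 0.01; the study's added fold threshold, an absolute log2 fold change above 1, was counted too. TPM used union exon lengths of GENCODE M21 on GRCm38. Isozyme ratios and summed TPM were compared by two-sided exact permutation tests. Total counts spanned 6944904 to 35301962 per library, and how far depth limits precision was not tested.

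Values in every library are given for the called members with the largest rise and fall of each role at 24 h and at P10, and for members past the fold; others by ranges and counts. The members and lists were chosen with earlier results of these data known. Alternatives were DESeq2 1.42.0, its size factors, library totals, no filter, only the groups compared, a replicate block and leaving out each library. Same-numbered libraries were taken as pairs where, over 3 pairs, the correlations of their deviations from the group means all passed 0.1. This rule was applied to the comparisons of 2 groups, where it held only for 2i/LIF at P10 and P20 (0.71, 0.55 and 0.48). The pairing comes from the data and not from the labels, and a paired fit was added there after seeing the data. Same-numbered Serum/LIF libraries of P10 and P20 also passed 0.1 (0.42, 0.11 and 0.31), as did P10 2i/LIF with P20 Serum/LIF (0.35, 0.18 and 0.17). The Serum/LIF pairs enter the change of the EMM effect, which was refitted with the title-number block over all groups and not with these pairs alone.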

Additional observations from a re-analysis of the deposited data

Results flagged for a closer look

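In 7 members the EMM effect against Serum/LIF differed between P20 and P10 by the test of the difference itself (edgeR, adjusted p under 0.01), 3 higher and 4 lower, where 8.28% of all genes were higher and 6.43% lower; the count of higher members is near the all-gene share. On the log2 scale the P20 effect minus the P10 effect was 1.43 for Pfkfb3, 1.07 for Ldhb and 0.92 for Slc2a3. It was −0.57 for Hk1, −0.60 for Tigar, −0.58 for Pgd and −0.60 for Rpe. Slc2a3 had opposite signs at the passages, −0.68 at P10 and 0.24 at P20, and only the first passed the threshold, the second doing so with only the compared groups in the model (adjusted p = 0.00237). The P10 and P20 Serum/LIF libraries also differed in their summed fibroblast markers, 134 to 162 CPM against 231 to 470 CPM. Trophectoderm markers summed to 22.9 to 31.2 CPM in EMM against 64.2 to 76.2 CPM in Serum/LIF at P10, and to 68.1 to 74.5 against 68.9 to 78.2 CPM at P20. Primitive endoderm markers summed to 4.17 to 5.47 against 10.8 to 14.5 CPM at P10, and to 12.6 to 19.5 against 13.8 to 19.8 CPM at P20. The part of these markers in the 7 differences was not tested.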

How the results depend on the processing

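Of 219 member calls, 173 kept direction and threshold under every alternative run. The value that changed sign was Ldha in EMM against Serum/LIF at P20, not called in either fit, which was −0.018 with library totals in place of TMM. Asking for a log2 fold change past 1 in either direction as well left 1 member higher and 0 lower at 3 h and at 9 h. It left 0 and 0 at 24 h and between 24 h and 3 h. All genes gave 1.7% and 2.52%, 2.05% and 3.5%, 3.5% and 4.69%, and 2.34% and 2.11% in these 4 comparisons. In EMM against Serum/LIF the fold threshold left 1 and 0 at P10 (6.67% and 10.5% of all genes) and 3 and 0 at P20 (3.44% and 6.19%). In 2i/LIF against Serum/LIF it left 5 and 4 at P10 (11.6% and 14.8%) and 3 and 7 at P20 (6.77% and 15.5%). EMM against 2i/LIF had 6 and 2 at P10 (11% and 11%) and 12 and 2 at P20 (16% and 9.39%). Between P20 and P10 of 2i/LIF there were 1 and 2 (3.56% and 6.59%), and 0 were lower in the change of the EMM effect (3.34%). With members on chromosomes 6 and 8 left out, 7 were higher in 2i/LIF at P10, 4 at P20 and 2 between P20 and P10. All genes gave 26.4%, 21.0% and 13.1%. In EMM against 2i/LIF at P10 2 were lower (22.2% of all genes), and 1 was higher in the change of the EMM effect (8.28%). There are fewer members by construction. With only the groups compared in the model, 22 members were higher and 2 lower in EMM at P20 (20.6% and 19.7% of all genes). Between P20 and P10 of 2i/LIF 1 was higher and 5 lower (5.5% and 7.59%). In that model 8 were higher in the change of the EMM effect (11.8%) and 2 were lower at 9 h (17.5%). The change of the EMM effect had 6 higher members with DESeq2 (10.3%) and 9 without the filter on low counts (5.8%). Library totals gave 9 lower members at 3 h (24%). The cause of these differences was not tested.

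Leaving out 1 library at a time gave 7 to 12 higher members in 2i/LIF at P20, where 16.8% to 19.9% of all genes were higher. It gave 2 to 7 between P20 and P10 of 2i/LIF (9.13% to 13.5%) and 8 to 11 in EMM at P20 (9.88% to 10.4%). Lower members numbered 9 to 14 at 24 h (18.1% to 20%), 2 to 5 at 9 h (15.5% to 17.3%) and 1 to 3 in EMM at P10 (14.8% to 15.4%). Among the comparisons of 2 groups, replicate numbers paired the libraries only in 2i/LIF at P20 against P10. A paired fit chosen there after seeing the data again gave 5 higher and 9 lower members, against 14.4% and 14.8% of all genes. In the other comparisons of 2 groups at least 1 of 3 same-numbered pairs correlated under 0.1 in its deviations, or there were only 2 pairs, as by description number between Serum/LIF and EMM at 24 h (0.76 and 0.59). The replicate block by title number moved counts by at most 1 and, among the values given in the text as not called, called Slc16a3 at 9 h (adjusted p = 0.00563) and Slc16a1 in 2i/LIF at P20 (adjusted p = 0.00784). The block by description number gave 10 lower members at 24 h (19.3% of all genes) and 13 higher at 9 h (16%). It also called Slc16a3 at 9 h (adjusted p = 0.00331). Pfkfb4 has the lowest counts of the members, and the part of depth in the results was not tested.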
